A study of Homo sapiens with 4 samples.

Results

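The 4 loci described here are those of TBXT, EOMES, MIXL1 and GSC, transcription factor genes of the primitive streak. Open chromatin was mapped with ATAC-seq, which uses a transposase to cut and tag accessible DNA. The cells were H1, a widely used line of human embryonic stem cells. The members are the peaks, in the deposited lists of the 4 groups, that overlapped a window from 50 kb before to 50 kb after each gene (hg19). Merged over the lists, they gave 33 regions of 87966 in the series, 5 at TBXT, 12 at EOMES, 8 at MIXL1 and 8 at GSC. Each group was 1 library: cells given Activin A and Wnt3a together (25 ng/ml each, 6 h), cells given Activin A (25 ng/ml, 6 h), cells given Wnt3a (25 ng/ml, 6 h), and control cells. Control cells stayed in N2B27 growth medium with 20 ng/ml bFGF, and no harvest time was given for them. The medium of the treated cells held B27, with no N2 or bFGF listed, so ligand and medium cannot be told apart in any comparison with control. All groups came from feeder-free cultures on Matrigel, and all carry a label of early mesendoderm differentiation, control included. With no replicates there was no test between groups. The H1 identity was not checked against marker genes, since hg19 positions of other genes were not used here.

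The primitive streak is the part of the early embryo where cells leave the epiblast to form mesoderm and endoderm. TBXT (brachyury) and EOMES are T-box factors, and MIXL1 and GSC (goosecoid) are homeodomain factors. In embryonic stem cells given Activin A and Wnt ligands, these genes are among the early markers of mesendoderm, the common precursor of both layers. Activin A signals through SMAD2 and SMAD3, which act with partners such as FOXH1 and EOMES itself, and Wnt3a stabilises beta-catenin, which acts through TCF and LEF factors.

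On hg19, TBXT lies on the minus strand at chr6:166571146-166582157, EOMES on the minus strand at chr3:27757440-27764206, MIXL1 on the plus strand at chr1:226411319-226414757 and GSC on the minus strand at chr14:95234560-95236499. In the RefSeq table of GRCh38.p14 the nearest protein-coding neighbours are PDE10A and PRR18 for TBXT, SLC4A7 and CMC1 for EOMES, ACBD3 and LIN9 for MIXL1, and SERPINA3 and DICER1 for GSC. The long non-coding gene LNCDAT overlaps TBXT, and the noncoding gene next to GSC on its upstream side is GSC-DT.

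The promoters of all 4 genes are shown because each gene start had a peak in both lists from cells given Activin A. The sequences are RefSeq's on GRCh38.p14, from 250 bases before to 50 bases after an annotated start, read 5′ to 3′ on the gene's strand. They were matched by gene symbol (4 of 4). Capitals mark matches on either strand to CAGAC (the SMAD box), CTTTGA (the TCF/LEF core) or AATNCACA (FOXH1).
EOMES, chr3:27722274-27722573, minus strand: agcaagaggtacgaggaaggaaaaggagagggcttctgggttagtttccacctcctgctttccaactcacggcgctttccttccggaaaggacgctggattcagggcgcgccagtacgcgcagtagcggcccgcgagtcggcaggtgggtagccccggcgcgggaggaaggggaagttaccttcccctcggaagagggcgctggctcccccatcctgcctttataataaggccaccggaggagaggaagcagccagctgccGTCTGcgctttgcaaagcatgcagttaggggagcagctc
TBXT at the gene start, chr6:166168606-166168905, minus strand: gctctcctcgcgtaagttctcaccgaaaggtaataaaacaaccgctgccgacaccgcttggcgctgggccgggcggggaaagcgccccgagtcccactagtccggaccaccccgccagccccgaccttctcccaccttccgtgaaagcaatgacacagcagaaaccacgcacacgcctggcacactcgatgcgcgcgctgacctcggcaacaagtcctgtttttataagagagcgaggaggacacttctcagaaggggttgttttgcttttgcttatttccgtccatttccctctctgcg
TBXT at an internal start, chr6:166167802-166168101, minus strand: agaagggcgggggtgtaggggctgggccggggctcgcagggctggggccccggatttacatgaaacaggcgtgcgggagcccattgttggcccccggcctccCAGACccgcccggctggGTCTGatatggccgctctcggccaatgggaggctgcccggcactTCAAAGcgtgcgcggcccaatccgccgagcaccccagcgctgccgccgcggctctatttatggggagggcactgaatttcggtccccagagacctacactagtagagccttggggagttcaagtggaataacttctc
MIXL1, chr1:226223414-226223713, plus strand: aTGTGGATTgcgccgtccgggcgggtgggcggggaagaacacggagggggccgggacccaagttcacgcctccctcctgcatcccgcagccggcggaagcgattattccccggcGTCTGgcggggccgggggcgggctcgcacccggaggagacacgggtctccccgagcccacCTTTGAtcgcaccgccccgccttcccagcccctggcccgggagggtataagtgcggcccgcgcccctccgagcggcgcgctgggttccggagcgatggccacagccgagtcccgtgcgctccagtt
GSC, chr14:94770064-94770363, minus strand: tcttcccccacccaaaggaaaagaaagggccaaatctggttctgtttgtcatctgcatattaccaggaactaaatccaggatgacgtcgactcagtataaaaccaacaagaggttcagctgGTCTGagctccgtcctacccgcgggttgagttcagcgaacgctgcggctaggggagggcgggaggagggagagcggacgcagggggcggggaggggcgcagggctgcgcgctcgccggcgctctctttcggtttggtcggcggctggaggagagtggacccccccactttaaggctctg

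The EOMES start used by RefSeq lies 390 bases inside the annotated gene, and the internal TBXT start 804 bases inside. A SMAD box stood in the EOMES, MIXL1, GSC and internal TBXT promoters, against 45.3% of the 35116 promoters in the table. A TCF/LEF core stood in the MIXL1 promoter and, on the opposite strand, in the internal TBXT promoter, against 12.9% of all promoters. The MIXL1 promoter also held the FOXH1 letters, which 3.31% of promoters hold. The TBXT sequence at the gene start held none of the 3, so it has no capitals. GTCTAGAC (the SMAD palindrome), AGGTGT (a T-box site), ATGCAAAT (the octamer) and TAATCC (a site of goosecoid-type homeodomains) had no match in these 5 windows. Of 2 general promoter motifs, left in lower case, TATAAA (the TATA box) matched in the EOMES and GSC promoters and at the TBXT gene start, against 11.5% of all promoters. The EOMES and TBXT matches were on the opposite strand, at -31 and -29 from the start used. The GSC match was on the gene's strand at -155. GGGCGG (the GC box) matched in the MIXL1, GSC and both TBXT promoters, against 45.0%. No match overlapped another. MIXL1 had the highest GC content of the 5, 73.3% with 37 CpG dinucleotides, and the other 4 held 58.3% to 65.7% GC with 21 to 25 CpG. The medians over all promoters were 58.7% GC and 14 CpG. A match describes letters only. No factor's binding was measured.

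Peaks at the 4 loci were several times more numerous in the 2 lists with Activin A, called the Activin A lists from here on (both ligands and Activin A alone). There were 24 peaks with both ligands, 28 with Activin A, 8 with Wnt3a and 7 in control. The lists themselves differed in length, with 58382, 75585, 21078 and 26223 peaks in the same order, and depth is unknown for all of them. Relative to control, peaks at the loci were 3.43 times as many with both ligands, 4.0 times with Activin A and 1.14 times with Wnt3a, where the whole lists were 2.23, 2.88 and 0.804 times the control list. Per 10000 peaks of a list, 4.11 lay at the loci with both ligands, 3.70 with Activin A, 3.80 with Wnt3a and 2.67 in control. When each list was cut to its 21078 highest scores, the length of the Wnt3a list, 7 peaks remained with both ligands, 7 with Activin A, 8 with Wnt3a and 4 in control. The cut itself took away 63.9% of the whole combined list and 72.1% of the whole Activin A list. A large fall in the counts at the loci was therefore set by the cut and is not a trait of these loci.

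**Figure D1:**
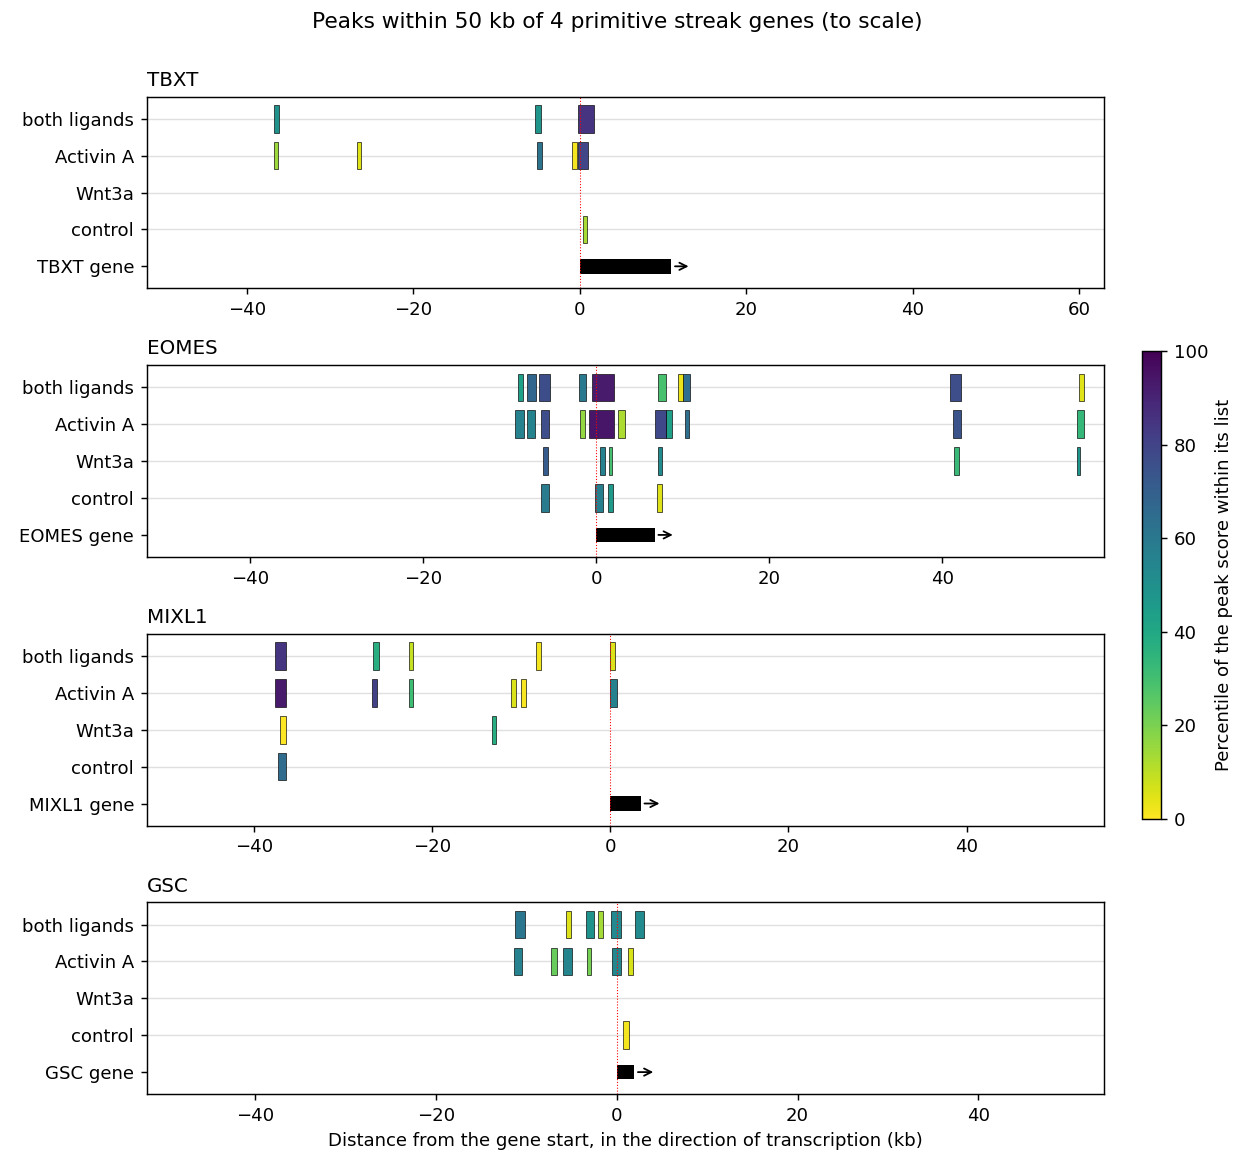
Peaks of the 4 lists around TBXT, EOMES, MIXL1 and GSC, drawn to scale by distance from the gene start in the direction of transcription (kb), 1 row per group, with the gene as a black bar below. Colour gives the percentile of the peak's score within its own list; EOMES has peaks in all 4 rows, whereas the Wnt3a row is empty at TBXT and GSC.

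The genes differed in how their peaks were spread over the groups. EOMES had 10 peaks with both ligands, 11 with Activin A, 6 with Wnt3a and 4 in control. TBXT had 3 with both ligands, 5 with Activin A, 0 with Wnt3a and 1 in control. MIXL1 had 5 with both ligands, 6 with Activin A, 2 with Wnt3a and 1 in control. GSC had 6 with both ligands, 6 with Activin A, 0 with Wnt3a and 1 in control. EOMES was thus the only one of the 4 with more than 1 control peak, and it held most of the Wnt3a peaks. At equal list length EOMES had 5, 4, 6 and 3 peaks in the order just used, TBXT 1, 1, 0 and 0, MIXL1 1, 2, 2 and 1, and GSC none in any list.

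Of the 33 regions, 19 lay upstream of a gene, 7 downstream, 6 within 1 kb of a gene start and 1 elsewhere inside a gene. Regions with a peak in both Activin A lists and in neither of the others numbered 13 of 33 (39.4%), against 21.9% of all regions. Regions with a peak in a single list numbered 4 for both ligands (12.1%, against 12.4% of all regions), 7 for Activin A (21.2%, against 30.1%), 1 for Wnt3a (3.03%, against 0.933%) and 0 for control (against 2.55%). Only 4 regions (12.1%, against 14.8% of all regions) had a peak in all 4 lists, 3 at EOMES and 1 at MIXL1.

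Regions without a control peak were counted in each treated list. With both ligands they made up 19 of 24 regions (79.2%, 95% interval 57.8 to 92.9), against 62.5% of all regions in that list. With Activin A they made up 22 of 28 (78.6%, 59.0 to 91.7), against 70.0% of all. With Wnt3a they made up 3 of 7 (42.9%, 9.90 to 81.6), against 33.1% of all. Each of these exact intervals, which cover counting error only and treat neighbouring regions as independent, included the share over all regions.

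Absence from control depended on how high a peak scored in the treated list. The score is the authors' own value per peak and was read only as a percentile within its list, where 100 is the highest. Its values look like a p-value of the peak within its own library on a −10 log10 scale, which no header states. A score of that kind also grows with sequencing depth and peak width, so a percentile is not a measure of accessibility alone. Of Activin A regions between percentiles 0 and 10, 96.0% lacked a control peak, and of those between percentiles 90 and 100, 4.40% did. Percentiles at the loci spread widely. Their median was 49.3 with both ligands (range 1.95 to 92.8), 54.1 with Activin A (0.943 to 94.3), 43.2 with Wnt3a (0.275 to 71.3) and 46.3 in control (1.69 to 64.9). A percentile of 75 or more was reached by 5 peaks with both ligands, 6 with Activin A, and none with Wnt3a or in control. Among these, 1 of 5 regions with both ligands and 1 of 6 with Activin A had no control peak, where 15.2% and 22.1% of all regions at that percentile or above had none.

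The start of EOMES had the highest-scoring and widest peak of the loci in both Activin A lists. The region spans 27762122 to 27765100 on chromosome 3. With both ligands it was 1 peak of 2553 bases at percentile 92.8, with Activin A 1 peak of 2913 bases at percentile 94.3. With Wnt3a it was split into 2 peaks of 643 and 364 bases at percentiles 56.2 and 30.0, and in control into 2 peaks of 947 and 561 bases at percentiles 57.1 and 46.3. The Activin A peak was wider than 99.7% of its list. The larger control peak reached from 175 bases before the gene start, the outer end of the hg19 gene, to 771 bases inside it. The Wnt3a peaks began 418 and 1469 bases inside the gene and left this start uncovered. The EOMES start used by RefSeq lies 390 bases inside the gene on GRCh38, close to the nearer Wnt3a peak. Both Activin A lists covered the start and the stretch between these pairs of peaks.

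Each list was also ranked over the same regions, so that the length of the list does not enter the percentile. Among the 13016 regions found in all 4 lists, the EOMES start stood at percentile 69.1 with both ligands, 68.5 with Activin A, 40.1 with Wnt3a and 33.5 in control. It was thus 35.6 points higher with both ligands, 34.9 points higher with Activin A and 6.51 points higher with Wnt3a than in control. A shift of 10 points or more upward was shown by 29.3%, 29.8% and 33.7% of the 13016 regions in these comparisons, and a downward one by 30.9%, 31.4% and 33.0%. Of the 4 regions at the loci, 1 was higher and 0 lower with both ligands, 3 higher and 1 lower with Activin A, and 2 higher and 1 lower with Wnt3a. Both ligands and Activin A alone differed by 0.668 points here.

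The start of TBXT ranked higher within both Activin A lists than within the control list. Its region, 166580441 to 166582406 on chromosome 6, held a peak of 1966 bases at percentile 84.9 with both ligands and of 1138 bases at percentile 78.9 with Activin A. It had no peak with Wnt3a. In control it held a peak of 551 bases at percentile 13.2. Within lists of equal length it stood at percentile 58.3 with both ligands and 24.4 with Activin A, and the control list then had no peak there. The control peak lay from 340 to 890 bases inside the gene and did not cover the gene start, and the internal RefSeq start, shown above, lies 804 bases inside the gene on GRCh38. The peak with both ligands reached from 249 bases before the start to 1716 bases inside, and the Activin A peak from 152 bases before to 985 bases inside. Ranked over the 21010 regions shared with control, the region stood at percentile 61.0 with both ligands and 9.09 in control, a difference of 51.9 points, where 29.4% of regions were higher by 10 points or more. Ranked over the 21911 regions shared by Activin A and control, it stood at percentile 40.6 with Activin A and 9.68 in control, a difference of 30.9 points, where 29.2% were higher by 10 points or more. A missing Wnt3a peak was common at its control score, since 1819 of 2425 control regions between percentiles 10 and 20 had none. It was less common at its scores in the other lists. Of combined regions between percentiles 80 and 90, 27.4% had no Wnt3a peak, and of Activin A regions between percentiles 70 and 80, 63.0%. A separate, low peak of the Activin A list (percentile 1.28) ended 298 bases before the TBXT start.

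The starts of MIXL1 and GSC had peaks in the 2 Activin A lists and in no other. At MIXL1 the region 226411248 to 226412080 on chromosome 1 stood at percentile 5.28 with both ligands (564 bases) and 56.3 with Activin A (833 bases), with no peak in the Wnt3a or control list. Peaks between percentiles 50 and 60 of the Activin A list lacked a control peak in 82.0% of cases, and those between percentiles 0 and 10 of the combined list in 92.7%. At GSC the region 95236045 to 95237119 on chromosome 14 stood at percentile 53.0 with both ligands (1075 bases) and 53.6 with Activin A (932 bases), with no peak in the Wnt3a or control list. The only control peak at GSC was a different one, 737 to 1331 bases inside the gene and at percentile 1.69. It shared its region with an Activin A peak at percentile 5.91 and with no peak of the other lists.

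**Figure D2:**
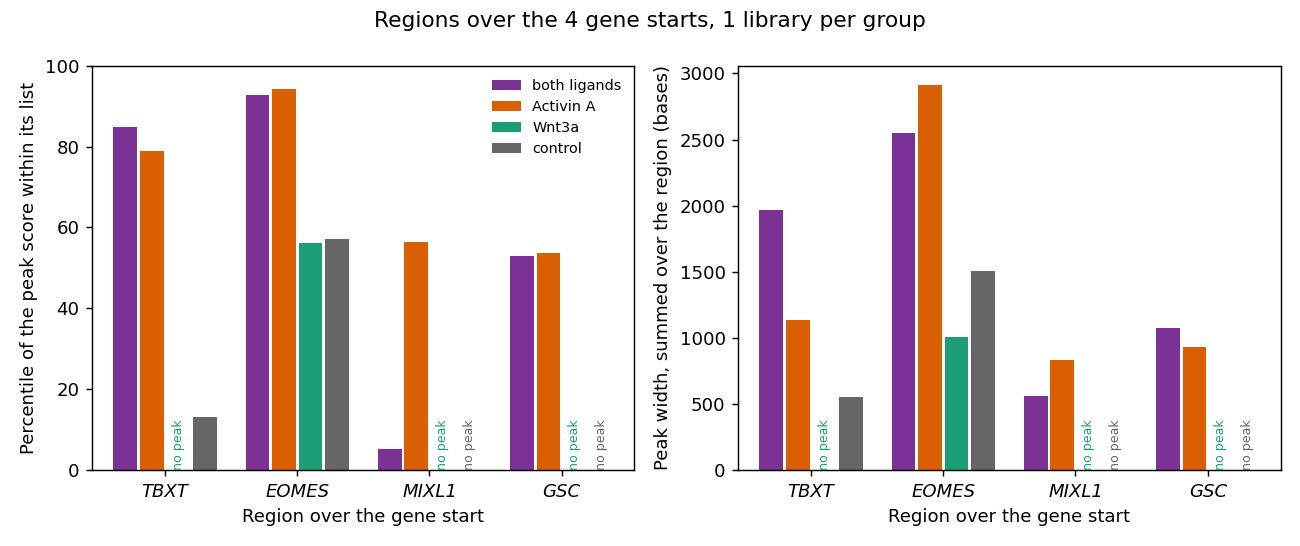
Regions over the starts of the 4 genes: left, the percentile of the highest peak score within its list, right, the summed peak width in bases, with 1 bar per library and "no peak" where a list had none. EOMES is the only gene with a bar for Wnt3a. In the left panel the combined and Activin A bars differ most at MIXL1, 5.28 with both ligands and 56.3 with Activin A.

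Away from its start, EOMES was flanked by peaks on both sides. The upstream region at 27769534 to 27770835, centred at -5.98 kb (negative values are upstream), was found in all 4 lists, at percentile 76.8 with both ligands, 76.4 with Activin A, 71.3 with Wnt3a and 58.4 in control. Over the regions found in all 4 lists these became percentiles 25.0, 15.3, 57.3 and 34.9, so the difference from control was then -19.5 points with Activin A and 22.4 points with Wnt3a. For this region the order of the groups therefore depended on the set of peaks ranked. It was the highest EOMES region outside the start with both ligands, with Wnt3a and in control.

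In the Activin A list that place belonged to the region at 27756143 to 27757374, which begins just past the 3′ end of EOMES (centre 7.45 kb). It stood at percentile 29.1 with both ligands, 78.2 with Activin A, 52.1 with Wnt3a and 5.13 in control. Over the regions found in all 4 lists it stood at percentiles 1.55, 17.9, 35.8 and 1.92 in that order. It was thus higher with either ligand alone than with both or in control, on both scales.

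At 27722027 to 27723298 (centre 41.54 kb, beyond the 3′ end) a region lacked a control peak and was present in the 3 treated lists, at percentile 76.2 with both ligands, 74.2 with Activin A and 32.8 with Wnt3a. Between percentiles 70 and 80, 39.8% of combined regions and 53.5% of Activin A regions had no control peak. A second region with the same presence, at 27707802 to 27708636, stood at percentiles 4.83, 33.3 and 48.3 in these lists. Of the other EOMES regions, 4 were shared by the 2 Activin A lists alone, 2 were found with Activin A only and 1 with both ligands only. Close upstream, the region centred at -1.57 kb was at percentile 59.1 with both ligands and 16.3 with Activin A, and those at -7.48 and -8.86 kb at percentiles 66.9 and 43.5 with both ligands and 55.3 and 55.5 with Activin A. The EOMES start peak had 8 other peaks within 50 kb of its centre with both ligands and 9 with Activin A. The list medians were 3 and 4, and these counts stood at percentiles 83.7 and 78.2 of their lists. With Wnt3a the EOMES start had 4 against a median of 1 (percentile 85.2), and in control 3 against 2 (69.3). The start peaks of TBXT, MIXL1 and GSC had 2, 4 and 5 with both ligands and 4, 5 and 5 with Activin A.

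Around MIXL1 the peaks lay upstream of the gene or over its start. The region at 226373659 to 226374982 (centre -37.0 kb), the only one at MIXL1 found in control, was at percentile 84.5 with both ligands, 93.2 with Activin A, 0.275 with Wnt3a and 64.9 in control. Over the regions found in all 4 lists it stood at percentile 41.8 with both ligands, 62.7 with Activin A, 0.181 with Wnt3a and 42.1 in control. It was among the lowest peaks of the Wnt3a list on both scales, with a difference from control of -41.9 points on the second, where 33.0% of regions were lower by 10 points or more. The region without a control peak that had the highest percentile at the 4 loci was at 226384617 to 226385330 (centre -26.35 kb), at percentile 80.8 with Activin A and 37.4 with both ligands, with no Wnt3a peak. In the Activin A list 27.5% of regions between percentiles 80 and 90 had no control peak. The remaining MIXL1 regions included a Wnt3a peak at 226398042 to 226398552 (centre -13.02 kb, percentile 38.0) that had no counterpart in the other lists, as was the case for 821 regions in the series. The 3 regions found in 1 Activin A list only were at or under percentile 5.65.

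At TBXT, the region at 166586727 to 166587563 (centre -4.99 kb) was at percentile 47.7 with both ligands and 61.7 with Activin A. The region at 166618289 to 166618924 (centre -36.45 kb) was at percentile 49.3 with both ligands and 14.7 with Activin A, and the region at -26.52 kb was in the Activin A list alone (percentile 4.69). No TBXT region outside the gene start had a Wnt3a or control peak. GSC had a group of peaks from -10.79 to 2.51 kb and nothing farther out within its window. The highest was at 95246670 to 95247902 (centre -10.79 kb), at percentile 60.9 with both ligands and 55.9 with Activin A. The region centred at -2.96 kb was at percentile 49.4 with both ligands and 21.1 with Activin A, and the region at -5.42 kb at percentile 5.28 with both ligands and 54.7 with Activin A. A peak just past the 3′ end of GSC, 95233503 to 95234468, was in the combined list alone (percentile 52.1), though an Activin A peak lay within 1 kb of it.

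The combined treatment was set beside Activin A alone, in the same medium. With no replicates, unequal list lengths and unknown depth, an effect of added Wnt3a cannot be told apart from library differences and was not tested. Of the combined regions 4 of 24 (16.7%, 4.74 to 37.4) had no Activin A peak, against 21.0% of all combined regions. Of the Activin A regions 8 of 28 (28.6%, 13.2 to 48.7) had no combined peak, against 39.4% of all. Apart from the peak past the end of GSC, at percentile 52.1, the combined-only regions were at or under percentile 13.3. The Activin A regions without a combined peak were at or under percentile 43.8. The highest of these, 27755452 to 27756138 at EOMES, ended just before a combined peak that began at 27756143. An Activin A peak, 95234696 to 95235249, lay within 1 kb of that GSC peak. With absence taken as no peak within 1 kb, 1 combined region had no Activin A peak and 3 Activin A regions had no combined peak. The GSC peak was then not among them. The share of all regions under the 1 kb rule is not given, so these counts have no background to be read against.

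The 20 regions at the loci found in both lists were ranked among all 44302 such regions, a set added after the peaks were seen. Of the 20, 9 stood 10 points or more higher with both ligands than with Activin A. This was 45% (exact interval 23.1 to 68.5), against 26.6% of all regions. Another 5 stood 10 points or more lower, 25% (8.66 to 49.1) against 26.4%. Both intervals included the share over all regions. The median difference was 4.60 points at the loci and -0.00734 over all regions. The genes did not share a direction. All 4 MIXL1 regions ranked lower with both ligands, by -8.53 to -41.97 points, 2 of them past 10 points, including the start region at percentile 2.82 with both ligands and 33.8 with Activin A. At TBXT 2 of 3 regions ranked higher by 10 points or more, the start region at percentile 80.3 with both ligands and 64.7 with Activin A. At GSC 3 of 4 ranked higher and 1 lower by 10 points or more, and at EOMES 4 of 9 higher and 2 lower. The EOMES start stood at percentile 90.6 with both ligands and 90.4 with Activin A. The largest upward difference was at the EOMES region at -1.57 kb (percentile 48.3 with both ligands, 5.80 with Activin A) and the largest downward one just past the end of EOMES (percentile 18.7 with both ligands, 63.6 with Activin A). Over the stricter set of regions found in all 4 lists, which holds 4 of these, 0 were higher and 2 lower by 10 points or more, against 24.9% and 25.5% of all.

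**Figure D3:**
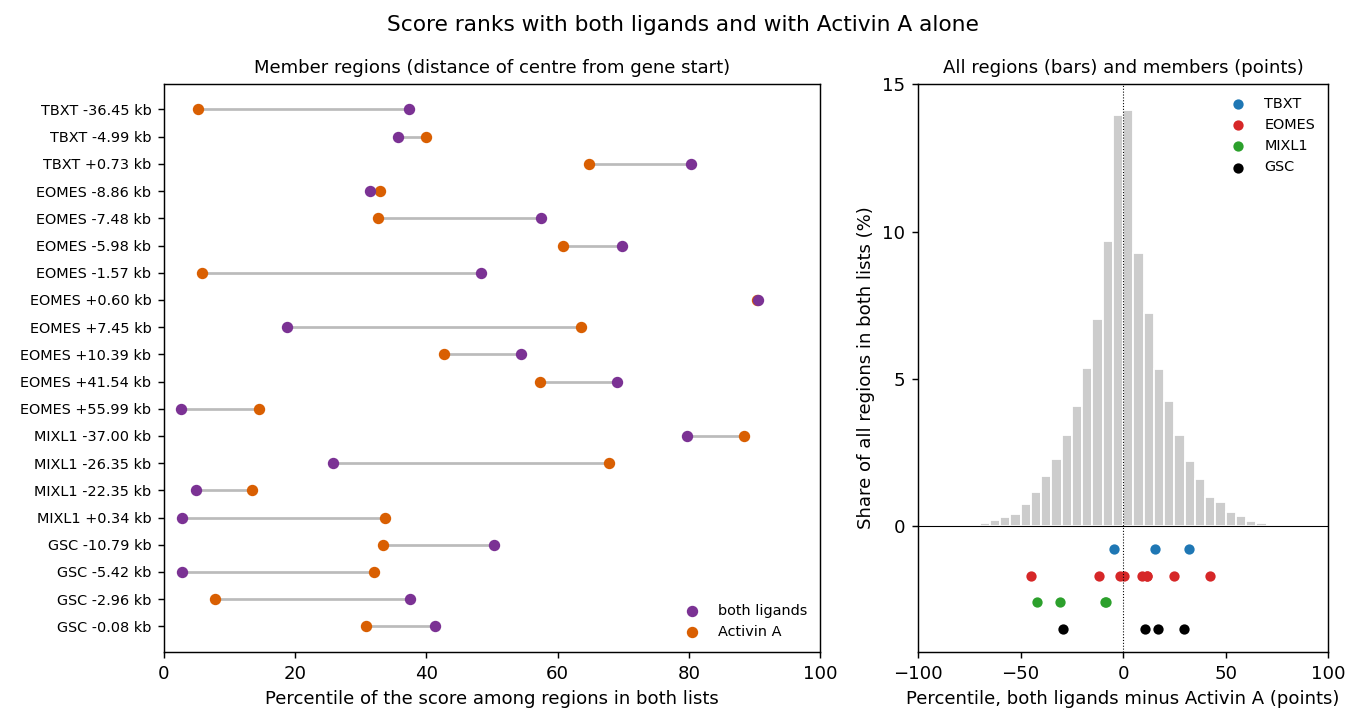
Left, percentile of the score among regions found in both the combined and the Activin A lists, for the 20 regions at the 4 loci, each named by the distance of its centre from the gene start. Right, the difference, both ligands minus Activin A in points, for all 44302 regions (grey bars, percent) and for the 20 regions (points by gene); all 4 MIXL1 points lie left of 0.

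Wnt3a alone was compared with the other treatments and with control. Of the 6 regions with a control peak, 2 had none with Wnt3a (33.3%, 4.33 to 77.7), against 46.5% of control regions. These were the TBXT start and the region inside GSC. With both ligands 1 of the 6 had none, the region inside GSC, against 15.2%, and with Activin A 0 of 6, against 11.5%. Set beside Wnt3a, 18 of 24 combined regions had no Wnt3a peak (95% interval 53.3% to 90.2%, against 67.9% of all), and 22 of 28 Activin A regions (78.6%, against 74.6%). The reverse held for 1 of 7 Wnt3a regions in each case, against 9.27% and 6.02% of all, the region at -13.02 kb from MIXL1. Among the regions in all 4 lists, 2 of the 4 at the loci were 10 points or more above Wnt3a with both ligands (30.7% of all) and 2 below (32.8%), with the same 2 and 2 for Activin A (30.9% and 32.2%). The EOMES and MIXL1 regions above were the EOMES start and the MIXL1 region at -37.0 kb.

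The edges of the windows were also examined. The outermost regions inside lay 36.1 kb from TBXT, 48.8 kb from EOMES, 36.3 kb from MIXL1 and 10.2 kb from GSC. The nearest ones outside lay at 59.2, 56.1, 77.5 and 60.2 kb in the same order, and none of these 4 had a Wnt3a or control peak. The region outside the GSC window was at percentile 69.8 with both ligands and 80.6 with Activin A, above every region inside it.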

How the data were processed

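ATAC-seq peaks from 4 libraries of H1 cells, 1 per group, were analysed. The submitters' processing notes name CASAVA 1.8, Bowtie2 2.2.2 and the build hg19. The caller and its settings, duplicate removal, read shifting and the depth of each library are not given in the sources used here. Depth is therefore unknown, and each of these affects which weak peaks are listed. Each deposited list gave positions, MACS-style names and a score per peak, with a minimum just above 50. From its values the score looks like a p-value on a −10 log10 scale, which no header states. The scores were ranked only within a list (mid-rank percentile).

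Peaks overlapping by at least 1 base or book-ended were merged over all lists. Group labels came from the sample labels. A shift of 10 percentile points was the size rule, and percentile 75 the rule for naming regions without a control peak. Also named were gene-start regions, the highest other region per gene and list, and control regions missing from a treated list. The members and rules were chosen with earlier results of these data known. Genes of like pattern, other pathway genes and marker genes were not examined, since hg19 gene positions beyond the 4 members were not used here. Exact 95% intervals are given for some of the shares. Merging was tested on simulated data. Python 3.11.15, numpy 2.4.6, pandas 2.3.3, scipy 1.17.1 and matplotlib 3.10.9 were used. Coordinates are counted from 1. Alternatives covered window size, list length, score threshold, merging distance, absence and the ranked set.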

Additional observations from a re-analysis of the deposited data

How the results depend on the processing

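In the alternatives run for the comparisons with control, gained regions outnumbered lost ones with both ligands and with Activin A. List length favours that order, except where the lists were cut to equal length. For gained and lost counts under a changed window, list, merging distance or absence rule, no share over all regions is given. Those counts show only how the calls changed and are not a result about the loci. Windows of 25 kb gave 5 Wnt3a peaks and 1 region gained with Wnt3a. Windows of 100 kb gave 37 peaks with both ligands and 45 with Activin A; gains over control were 31, 38 and 5 with both ligands, Activin A and Wnt3a. Both ligands then had 8 gained and 16 lost regions against Activin A, and 29 gained and 2 lost against Wnt3a. Activin A had 37 gained and 2 lost against Wnt3a. At equal list length peaks numbered 7 with both ligands, 7 with Activin A and 4 in control. Both ligands, Activin A and Wnt3a each gained 4 regions over control, and none were lost with both ligands or Wnt3a. Both ligands had 2 gained and 2 lost against Activin A and 3 gained and 3 lost against Wnt3a, and Activin A 2 and 2 against Wnt3a. In the top 50% of each list peaks numbered 11, 15, 3 and 3 with both ligands, Activin A, Wnt3a and in control. Gains over control were then 8, 12 and 1, with 0 lost with both ligands and 1 with Wnt3a. Both ligands gained 2 against Activin A and 9 against Wnt3a, and Activin A had 12 gained and 0 lost against Wnt3a. Merging peaks within 500 bases gave 12 regions gained with both ligands, 0 lost and 14 gained with Activin A, 1 gained and 3 lost for both ligands against Activin A, and 14 gained for Activin A against Wnt3a. With absence taken as no peak within 1 kb, both ligands had 0 lost against control, and 1 gained and 3 lost against Activin A. Ranking over regions in both lists, added after seeing the data, gave 2 regions higher with both ligands than in control, and 9 higher and 5 lower than with Activin A. Fewer peaks entered by construction at equal length and in the top 50%, and more in wider windows; beyond that the cause was not tested. Ranking the gene-start regions by width instead of score moved all 14 percentiles beyond their counting interval. Ranking within equal-length lists moved 5 of 6, and ranking over regions in all 4 lists moved 4 of 4. The interval is narrow in lists this long, and each alternative ranks another variable or another set. These moves were therefore largely fixed in advance and do not measure robustness. The 1 unmoved percentile was from the Wnt3a list, which sets the equal length and so was not cut. Depth is unknown, so a missing weak peak may not be a closed region. No paired analysis was possible because there was a single library in every group.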
